A study of Eublepharis macularius with 18 samples.

Results

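Matrix proteases, cathepsins and their inhibitors were followed in ventricle RNA of the leopard gecko (Eublepharis macularius) after cryoinjury. Members were the rows of the deposited table of normalized counts whose symbol begins with Mmp, Adam or Timp followed by a digit, with Adamts or with Serpin, or is Cts followed by a single letter. This rule took 68 of 12376 rows: 16 matrix metalloproteinases (MMPs), 8 ADAMs, 19 ADAMTS proteases, 3 ADAMTS-like genes, 2 tissue inhibitors of metalloproteinases (TIMPs), 12 cathepsins and 8 serpins. Timp1 and Timp4 were not analysed here.

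Poly(A) RNA from a piece of ventricle was sequenced in 18 animals, 3 in each of 6 groups, with RNA extracted from each animal on its own. The injury was made by touching the exposed ventricle, through a torn pericardium, with a metal probe cooled in liquid nitrogen, and tissue beside the injury was taken at 3, 14, 30 or 100 days post injury (dpi). The other groups were control and sham animals, sampled in a comparable region. When the sham animals were sampled is not stated, so they stand as a reference without a time of their own, and age, sex, strain and sequencing batch are not stated for any group.

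MMPs, ADAMs and ADAMTS proteases are zinc enzymes that cut collagens, proteoglycans and cell-surface proteins, and TIMPs block their active site. Cathepsins are mostly lysosomal proteases, of which some, such as cathepsin K in mammals, also degrade collagen outside the cell. Serpins include inhibitors of serine proteases such as plasminogen activators, but some members of the family, among them the collagen chaperone encoded by Serpinh1, inhibit no protease. In the injured mammalian heart these families are known for the turnover of matrix during scar formation.

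The libraries held 12646411 to 34898541 reads recovered from the deposited values, and 3 reads, taken as the floor of detection, correspond to 1.45 to 3.95 normalized counts. Summed FPKM of 8 cardiomyocyte marker rows lay between 16116 and 27365 in all libraries, and that of 4 hepatocyte marker rows was at most 1.27. The rows carry mouse symbols and mouse Ensembl identifiers, because the assembled gecko transcripts were annotated with mouse genes, and closely related members could share reads. A total of 54 members passed the filter of a mean of 10 normalized counts, and they were 12 MMPs, 6 ADAMs, 14 ADAMTS proteases, 3 ADAMTS-like genes, 2 TIMPs, 11 cathepsins and 6 serpins. Library 3 of the 3 dpi group stood apart: it was the highest of the 18 libraries for 17 of the 54 members (31.5%), against 14.9% of all tested rows.

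Per unit of transcript length, cathepsins were the most abundant family in every group. Their summed FPKM made up between 51.7% (mean of 3 dpi) and 62.3% (mean of 30 dpi) of the FPKM of all 68 members. The highest member was Ctsc, which encodes the dipeptidyl peptidase that activates granule serine proteases, with a mean of 298 FPKM over 18 libraries. It was followed by Ctsh, an aminopeptidase, with 110.1 FPKM, and Ctsb, a lysosomal cysteine protease, with 96.9 FPKM. The most abundant inhibitors were Serpine2, an inhibitor of thrombin and plasminogen activators, with 89.4 FPKM, and Timp2 with 73.9 FPKM. Mmp15, a membrane-bound MMP, had a mean of 38.1 FPKM and Mmp2, gelatinase A, one of 30 FPKM. Adam10 and Adam17, the sheddases that release membrane-bound growth factors and cytokines, stood at 23.7 and 11.7 FPKM. Among ADAMTS proteases Adamts15 had a mean of 7.6 FPKM and Adamts19 one of 6.18 FPKM, and among ADAMTS-like genes, which lack the protease domain, Adamtsl1 and Adamtsl3 had 2.12 and 1.87 FPKM.

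**Figure D1:**
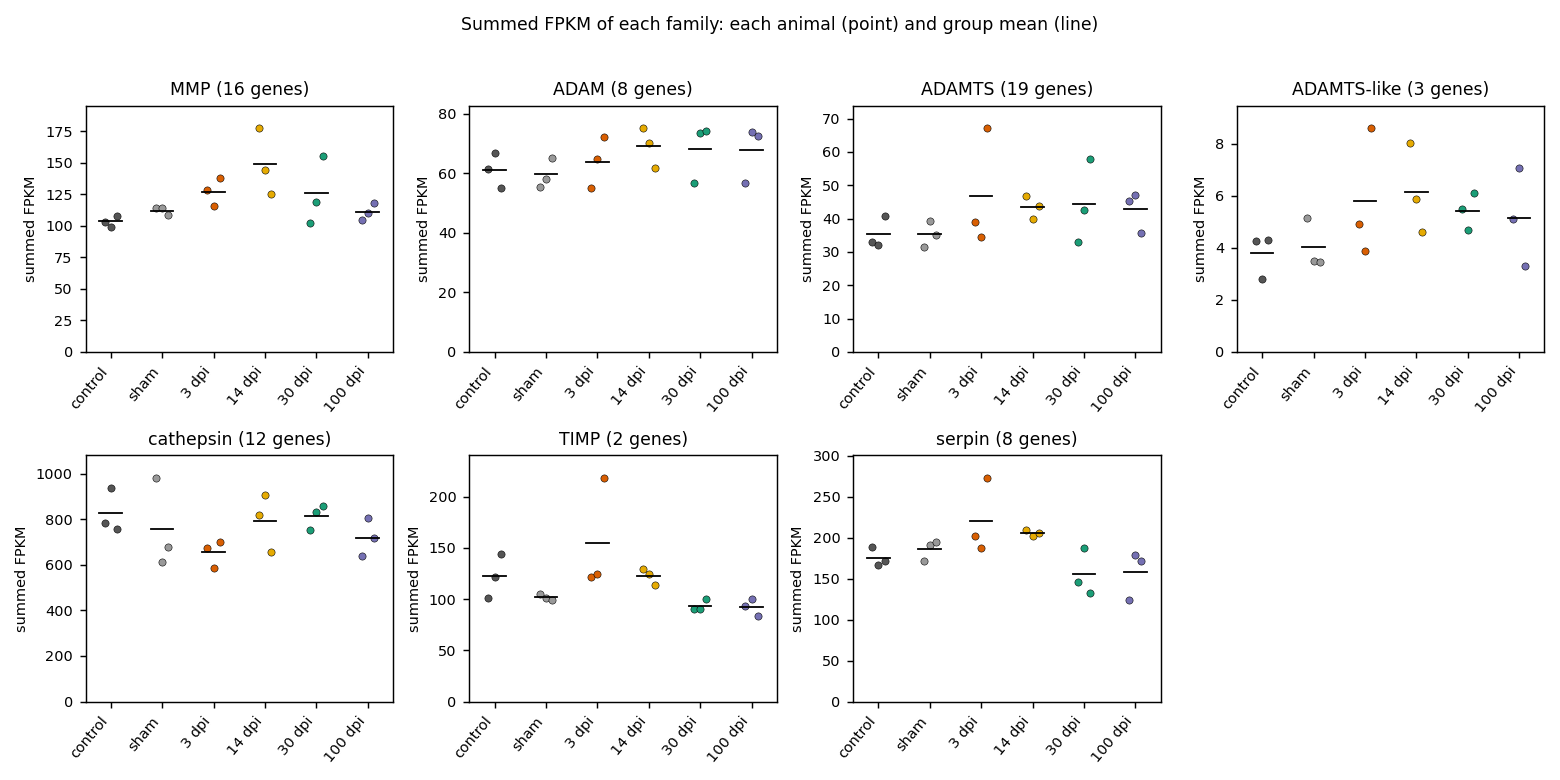
Summed FPKM of each family (y axis, linear from 0) in the 6 groups (x axis); points are animals and lines are group means. The MMP sums of 14 dpi (125.5 to 177.7), like those of shams (108.3 to 114.2) and 3 dpi (115.7 to 138), lie above those of the controls (99.4 to 108.2). Mmp2 alone had 36.3 to 74.9 FPKM at 14 dpi and 18.3 to 22.4 in controls. The cathepsin sums are the highest of the 7 families in every group.

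The summed FPKM of the 16 MMPs was 99.4 to 108.2 in controls and 108.3 to 114.2 in shams. It was 115.7 to 138 at 3 dpi and 125.5 to 177.7 at 14 dpi. The sums of shams, 3 dpi and 14 dpi all lay above every control. Mmp2 alone had 74.9, 49.1 and 36.3 FPKM at 14 dpi and 18.3, 22.4 and 18.8 in controls. The sums were not compared without Mmp2, so they do not show a rise of the family as a whole. At 30 dpi (102.2 to 155.9) and 100 dpi (104.8 to 118.1) the lowest sums lay inside the control range. Mmp23 alone had 29.5 FPKM in library 3 of 30 dpi. Its normalized count there was 166, beside 148 in control 1, where it had 8.18 FPKM. The normalized counts thus do not show a rise of Mmp23 of that size, and the cause was not tested. The summed FPKM of Timp2 and Timp3 was 101.1 to 143.8 in controls, 98.8 to 104.8 in shams, 89.9 to 100.0 at 30 dpi and 83.2 to 100.2 at 100 dpi. Both late groups lay below every control but overlapped the shams. At 3 dpi the same sum ran from 121.1 to 218.4, with the high value in library 3. These family sums are descriptions and were not tested.

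A limma model over all 18 libraries, fitted to log2(normalized count + 1), tested whether a row differed anywhere among the 6 groups. It called 11 of 54 members (20.4%) at an adjusted p under 0.05, against 16.2% of all 9887 tested rows. They were Mmp2, Mmp27, Adamts2, Adamts5, Adamts8, Adamts17, Timp3, Ctsk, Serpinb1b, Serpinf1 and Serpinh1. Across 12 pairwise comparisons 10 members made 18 calls, 13 higher and 5 lower, and Adam23 and Serpini1 were called pairwise but not among the 6 groups. The 41 remaining tested members passed neither test.

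**Figure D2:**
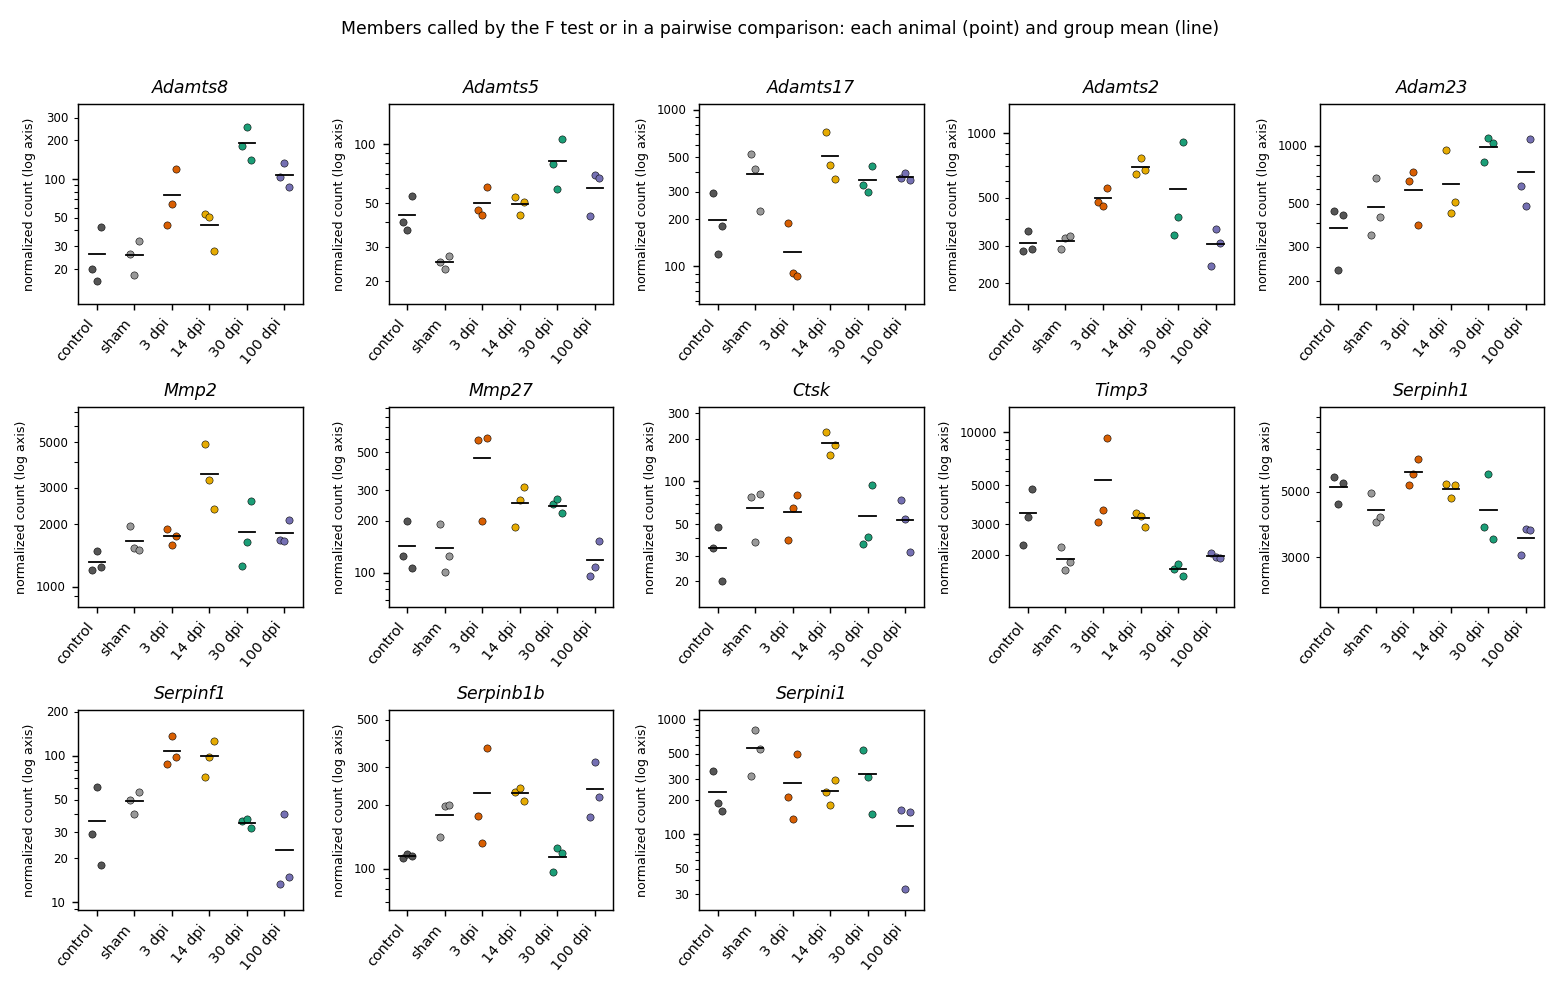
Normalized counts (y axis, log scale) of the members called by either limma test, by group (x axis); points are animals and lines are group means. Adamts8 lies above all controls and shams at 30 and 100 dpi, Ctsk and Mmp2 are at their highest group mean at 14 dpi, and Timp3 has its single highest value in library 3 of 3 dpi.

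The calls fell at different times. Against control, limma called no member in shams (0% of all rows called; 5 members at an unadjusted p under 0.05; 0 by edgeR) and none at 3 dpi (0.334% of all rows; 8 members at an unadjusted p under 0.05; 0 by edgeR). At 14 dpi 3 members were higher and none lower (0.89% of all rows called in either direction, 0.718% higher). At 30 dpi 3 were higher and none lower (11.3% of all rows, 7.37% higher), and at 100 dpi 2 were higher and 1 lower (12% of all rows, 7.56% higher and 4.45% lower), so at these late times the members' 5.56% was below the share over all rows. Against sham, 1 member was lower at 3 dpi (0.971% of all rows, 0.303% lower), none was called at 14 dpi (0.738% of all rows; 13 members at an unadjusted p under 0.05; 0 by edgeR), 2 were higher at 30 dpi (7.25% of all rows, 5.9% higher), and 2 were higher and 1 lower at 100 dpi (7.14% of all rows, 5.54% higher and 1.6% lower). Between successive times limma called none from 3 to 14 dpi (0% of all rows; 8 members at an unadjusted p under 0.05; 0 by edgeR), 1 higher and 2 lower from 14 to 30 dpi (3.97% of all rows, 2.42% higher and 1.56% lower), and none from 30 to 100 dpi (0.769% of all rows; 12 members at an unadjusted p under 0.05; 0 by edgeR). Of all 9887 tested rows, 479 had an unadjusted limma p under 0.05 for sham and 1565 for 3 dpi against control. The number was 1262 for 14 dpi against sham, 1205 for 14 against 3 dpi and 1589 for 100 against 30 dpi. The comparisons with control share the control animals, and those with sham share the sham animals. Groups of 3 often lay apart. Of all 9887 tested rows, 1026, 1348, 1475 and 1684 had every animal of 3, 14, 30 and 100 dpi, in that order, above every control. Of the 54 members it was 8, 13, 8 and 8.

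Among the MMPs, Mmp2 was higher at 14 dpi than in controls and lower again at 30 dpi. This gene, which encodes a gelatinase made by fibroblasts and other stromal cells, lies on chromosome 16 from 42301131 to 42359761 in RefSeq's annotation of assembly MPM_Emac_v1.0, as matched by symbol. Mmp2 had normalized counts of 1204, 1493 and 1251 in controls, 1967, 1546 and 1501 in shams and 1907, 1593 and 1752 at 3 dpi. They were 4911, 3262 and 2388 at 14 dpi, 1265, 1644 and 2584 at 30 dpi and 1691, 1659 and 2110.5 at 100 dpi. All 3 animals of 14 dpi were above every control, sham and 3 dpi animal, whereas the highest animal of 30 dpi exceeded the lowest of 14 dpi. The log2 difference between 14 dpi and sham was 1.02 ± 0.248 (SE, limma adjusted p = 0.0743), which did not pass. The log2 difference between 14 dpi and control was 1.36 ± 0.248 (SE, limma adjusted p = 0.0192), and that between 30 and 14 dpi was -0.94 ± 0.248 (SE, limma adjusted p = 0.0438). The first call was lost with only the 2 groups in the fit (limma adjusted p = 0.0548) and without control 1, control 3, 14 dpi 1 or 14 dpi 2 (limma adjusted p = 0.0708, 0.0714, 0.111 and 0.0822). The second was lost under 3 other settings (limma adjusted p = 0.0586 with the transcript length trend removed, 0.0686 with a replicate block and 0.172 with only the 2 groups) and without 14 dpi 1, 14 dpi 2, 30 dpi 1 or 30 dpi 2 (0.197, 0.103, 0.116 and 0.112), and its log2 size fell to -0.67 without 14 dpi 1.

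Fibroblast marker sums were also at their highest at 14 dpi, but at 3 dpi they already lay above every control and sham. The summed FPKM of 8 fibroblast marker rows was 303.6 to 383.4 in controls, 308.9 to 456.8 in shams and 487.1 to 672.4 at 3 dpi. It was 761.0 to 799.7 at 14 dpi, 225.5 to 728.4 at 30 dpi and 253.5 to 398.6 at 100 dpi. Of these 8 rows, limma called Lum, Col1a2 and Fbln1 higher at 14 dpi than in controls, and Dcn, Lum, Dpt, Col1a2 and Fbln1 lower at 30 than at 14 dpi, and none of the 8 stood at 0 in these groups. In ventricle pieces, more or fewer cells of a type and more or less RNA per cell cannot be told apart, and the part of fibroblast RNA in the Mmp2, Adamts2 and Ctsk differences was not tested. Mmp14, the membrane-bound MMP that activates the Mmp2 proenzyme in mammals, had 1368, 1323 and 1050.3 normalized counts at 14 dpi against 649, 753 and 591 in controls. The groups did not overlap, but the log2 difference of 0.91 ± 0.247 (SE, limma adjusted p = 0.0926) did not pass. Timp2, which takes part in the same activation, had 5150.2, 4954 and 4716 at 14 dpi and 4385, 4792 and 4859 in controls, ranges that overlapped.

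Mmp27, an MMP of little known function, differed among the 6 groups (limma adjusted p = 0.0176 for the F test) without any pairwise call. Normalized counts were 126, 199 and 107 in controls, 193, 101 and 124 in shams and 585, 199 and 608 at 3 dpi. They were 183, 263 and 312 at 14 dpi, 249, 266 and 221 at 30 dpi and 95.5, 108 and 152 at 100 dpi. Every animal of 3 dpi was above every control, 1 of them by less than 1 count, and every animal of 100 dpi was below every animal of 30 dpi. The log2 difference between 3 dpi and control was 1.57 ± 0.378 (SE, limma adjusted p = 0.073). Between 3 dpi and sham it was 1.62 ± 0.378 (SE, limma adjusted p = 0.0544), which did not pass. Without 3 dpi 1 the F test gave an adjusted p of 0.0508 by limma.

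Other MMPs with known matrix roles passed no test. Mmp9, the gelatinase of neutrophils and macrophages in mammals, ranged from 78.4 to 593 normalized counts over the 18 libraries, with its 2 highest values in library 3 of 3 dpi and library 3 of 100 dpi. Mmp19, a stromelysin-like enzyme, ranged from 14.9 to 148, Mmp23 from 25.4 to 166 and Mmp28, known as epilysin, from 326 to 831. Mmp15 ranged from 2985 to 5452. Its 3 libraries of 100 dpi (3893, 3346 and 2985) overlapped those of the controls (3873, 3709 and 5452). Mmp11, known as a stromelysin, ranged from 219 to 594, the membrane-bound Mmp16 and Mmp17 from 4.76 to 43.8 and 11.5 to 62.7, and Mmp8, the neutrophil collagenase, from 1.81 to 112, with its highest values in libraries 2 and 3 of 100 dpi. Mmp13, a fibrillar collagenase, had 2 reads over all 18 libraries.

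Adamts8 gave the most calls of any member. It encodes a secreted protease related to the aggrecanases, which cut large proteoglycans, and RefSeq places it on chromosome 14 from 14521362 to 14558699. Its normalized counts were 20.1, 16.2 and 42.5 in controls, 26.2, 18 and 33.4 in shams and 43.9, 63.7 and 119 at 3 dpi. They were 53.8, 51 and 27.7 at 14 dpi, 179, 254 and 142 at 30 dpi and 104, 133 and 87.3 at 100 dpi. All 6 animals of 30 and 100 dpi were above every control and sham animal, and the animals of 3 dpi were also above every control. Against control, limma gave log2 differences of 2.90 ± 0.416 (SE, limma adjusted p = 0.000441) at 30 dpi and 2.10 ± 0.416 (SE, limma adjusted p = 0.00515) at 100 dpi. Against sham the values were 2.84 ± 0.416 (SE, limma adjusted p = 0.000556) and 2.04 ± 0.416 (SE, limma adjusted p = 0.00769). From 14 to 30 dpi the log2 value rose by 2.11 ± 0.416 (SE, limma adjusted p = 0.0123). The 4 calls against control and sham held in all 15 settings tried for each, left-out libraries included, and the rise from 14 to 30 dpi in 14 of 15, the exception being the fit without 14 dpi 3 (limma adjusted p = 0.0617). At 3 dpi the log2 difference from control was 1.49 ± 0.416 (SE, limma adjusted p = 0.111), and from 30 to 100 dpi it was -0.80 ± 0.416 (SE, limma adjusted p = 0.363). Fibroblast, macrophage and cardiomyocyte marker sums of 30 and 100 dpi overlapped those of the controls. Of the 8 cardiomyocyte marker rows, limma called Ttn higher at 30 and 100 dpi against both control and sham, and no other. Ttn was also called higher at 30 than at 14 dpi. Its mean normalized counts were 66743 in controls, 69549 at 14 dpi, 139697 at 30 dpi and 124371 at 100 dpi. The part of cardiomyocyte RNA in the Adamts8 differences was not tested.

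Endothelial marker sums lay above those of the controls at both late times, and smooth muscle marker sums lay below them at 100 dpi. Over 6 endothelial marker rows the summed FPKM was 54.3 to 68.0 in controls and 55.7 to 74.2 in shams, against 69.6 to 78.5 at 30 dpi and 89.8 to 111.1 at 100 dpi. Of these 6 rows, limma called Cdh5 higher at 30 and at 100 dpi against both control and sham, and no other. Cdh5 was also called higher at 14 dpi against control. Cdh5, a cadherin of endothelial junctions, had 204, 218 and 139 normalized counts in controls, 207, 292 and 391 in shams, 674, 565 and 438 at 14 dpi, 671, 602 and 977 at 30 dpi and 1223, 879 and 1046 at 100 dpi. Over 7 smooth muscle and pericyte marker rows the summed FPKM was 3068 to 4237 in controls and 2851 to 2982 in shams. It was 2420 to 3570 at 30 dpi and 1870 to 2983 at 100 dpi, and both overlapped the shams. These rows did not move together. Against control, limma called Cnn1 lower and Mylk higher at 30 and 100 dpi, and Des lower at 100 dpi. Earlier calls against control were Cnn1, lower at 3 dpi, and Mylk, higher at 14 dpi. Against sham, limma called only Mylk at these late times, higher at 100 dpi. None of these endothelial or smooth muscle rows stood at 0 in these groups, and their part in the late differences of Adamts8, and of the members called at 30 or 100 dpi below, was not tested.

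Adamts5, one of the main aggrecanases of mammalian cartilage and a versican-cutting enzyme, was called higher at both late times against sham. RefSeq places it on chromosome 3 from 102961298 to 103069780. Normalized counts of Adamts5 were 40.3, 36.5 and 54.3 in controls, 25, 23.1 and 27.1 in shams and 45.9, 43.4 and 60.5 at 3 dpi, and 53.8, 43.3 and 50.7 at 14 dpi, 79.2, 59.3 and 106 at 30 dpi and 43, 69.7 and 67.5 at 100 dpi. The 3 shams were below all other 15 animals, and the 3 animals of 30 dpi were above all controls. The log2 difference from sham was 1.63 ± 0.269 (SE, limma adjusted p = 0.00135) at 30 dpi, held in all 15 settings, and 1.20 ± 0.269 (SE, limma adjusted p = 0.0131) at 100 dpi. The second call was lost with only the 2 groups in the fit and without sham 2, 100 dpi 2 or 100 dpi 3 (limma adjusted p = 0.0662, 0.0563, 0.0622 and 0.0541). Against control it was 0.87 ± 0.269 (SE, limma adjusted p = 0.0485) at 30 dpi, a call that held in 7 of 15 settings and was lost without control 1, control 2, 30 dpi 1 or 30 dpi 3 (limma adjusted p = 0.119, 0.15, 0.0762 and 0.195) and in 4 other fits (adjusted p up to 0.156). Shams against controls differed by -0.76 ± 0.269 (SE, limma adjusted p = 0.816), which did not pass.

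Adamts8 and Adamts5 each have another member as their neighbour in the RefSeq annotation, with no protein-coding gene between. Adamts15, a proteoglycanase, lies 37819 bases from Adamts8, and Adamts1, an early described aggrecanase and versicanase, lies 31331 bases from Adamts5. Adamts15 had 289, 350.4 and 540.2 normalized counts in controls and 474, 735 and 1098 at 30 dpi, ranges that overlapped, and a log2 difference of 0.93 ± 0.444 (SE, limma adjusted p = 0.187). Adamts1 had 56.4, 93.2 and 76.9 in controls, 65.5, 51.4 and 52.3 in shams and 79.2, 59.3 and 69.8 at 30 dpi, with a log2 difference from sham of 0.29 ± 0.29 (SE, limma adjusted p = 0.591). Neither neighbour passed a test that the adjoining member passed, and the difference between neighbours was not tested. The third such pair, Ctss and Ctsk, lies on chromosome 1 with 13894 bases between.

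**Figure D3:**
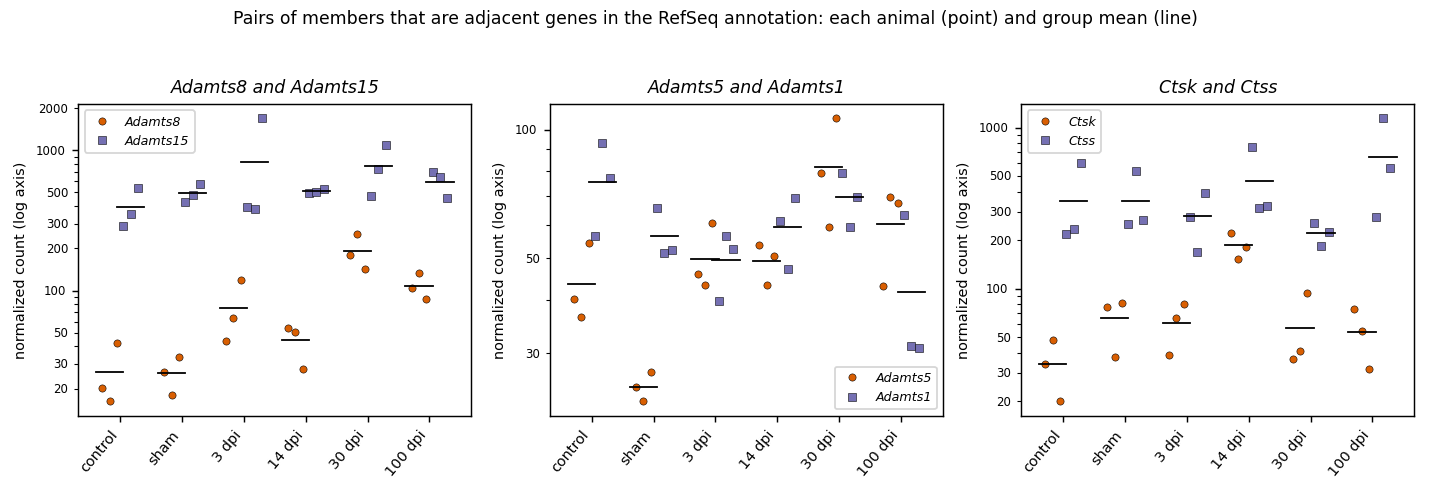
Normalized counts (y axis, log scale) of 3 pairs of members that are adjacent in the RefSeq annotation, by group (x axis); circles and squares are animals and lines are group means. Adamts8, Adamts5 and Ctsk each have a group whose 3 animals lie above the controls (30 dpi, 30 dpi and 14 dpi), while Adamts15, Adamts1 and Ctss overlap the controls there.

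The other proteoglycan-cutting members passed no test. Adamts4, an aggrecanase, ranged from 22.6 to 700.0 normalized counts, and controls alone (80.5, 354 and 675) covered most of that range. Adamts9 ranged from 154 to 438. Its animals of 100 dpi (317, 438 and 394) were all above the controls (265, 170.2 and 244), with a log2 difference of 0.77 ± 0.294 (SE, limma adjusted p = 0.0989). Adamts7, an enzyme that cuts cartilage oligomeric matrix protein, ranged from 260.2 to 674. Adamts20 had a mean below the filter.

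Of the procollagen N-proteinases, which remove the amino-terminal propeptide of fibrillar procollagens, Adamts2 was called higher at 14 dpi than in controls. RefSeq places it on chromosome 4 from 79550592 to 79912054. It had 283, 349 and 290.5 normalized counts in controls, 289, 324 and 334 in shams and 477, 457 and 557 at 3 dpi. Values were 644, 769 and 674 at 14 dpi, 335, 409 and 909 at 30 dpi and 242, 359.9 and 309 at 100 dpi. The animals of 3 and 14 dpi were all above every control, those of 14 dpi were above those of 3 dpi, and 30 dpi held both values near control and the highest of all. The log2 difference between 14 dpi and sham was 1.14 ± 0.264 (SE, limma adjusted p = 0.0627), which did not pass. The log2 difference between 14 dpi and control was 1.18 ± 0.264 (SE, limma adjusted p = 0.0489). It held in 5 of 15 settings and was lost without any 1 of the 6 libraries (limma adjusted p = 0.0953 to 0.193) and by edgeR (adjusted p = 0.0563), whereas the call among the 6 groups held in all 26 settings tried (main limma adjusted p = 0.0159). Adamts3, which has the same activity in mammals, had 2277 normalized counts in library 3 of 3 dpi and 206 to 2277 over all libraries, with 638 in the next highest, and passed no test. Adamts14 was below the filter.

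Adamts17, a protease linked to fibrillin microfibrils in mammals, was lower at 3 dpi than in shams. Its normalized counts were 527, 419 and 226 in shams, 294, 121 and 182 in controls and 191, 91.3 and 86.9 at 3 dpi. They were 726, 445 and 362 at 14 dpi, 333, 300.5 and 437 at 30 dpi and 367, 397 and 355 at 100 dpi. All 3 animals of 3 dpi were below every sham and below every animal of the 3 later times, while they overlapped the controls. The log2 difference from sham was -1.67 ± 0.375 (SE, limma adjusted p = 0.0449). That call was lost without any 1 of the 6 libraries (limma adjusted p = 0.0522 to 0.172), by edgeR (0.0504), in the FPKM table (0.0572) and with only the 2 groups in the fit (0.174). The call among the 6 groups held in all 26 settings (main limma adjusted p = 0.00843). Adamts10, also linked to fibrillin in mammals, ranged from 138 to 299.6 and passed no test. The remaining tested genes of the family were Adamts6, which ranged from 249.9 to 727, Adamts12 from 51.2 to 165 and Adamts19 from 125 to 1137, and none passed. The ADAMTS-like genes, whose mammalian proteins bind microfibrils, also passed no test. Adamtsl1 ranged from 157 to 814, with its highest value in library 1 of 14 dpi, Adamtsl2 from 12.2 to 191, with its highest in library 3 of 3 dpi, and Adamtsl3 from 139 to 510.0, with its highest in library 2 of 100 dpi.

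Among the ADAMs, Adam23 was the only member called. It encodes a protein without protease activity that binds secreted LGI proteins in the mammalian nervous system, on chromosome 2 from 229330959 to 229476749. Its normalized counts were 457, 228 and 436 in controls, 345, 679.7 and 429 in shams and 657, 731 and 387 at 3 dpi. They were 952, 447 and 511 at 14 dpi, 827, 1098 and 1039 at 30 dpi and 619, 490 and 1086 at 100 dpi. The animals of 30 dpi were all above the controls and shams, and the log2 difference from control was 1.46 ± 0.369 (SE, limma adjusted p = 0.019). From sham it was 1.07 ± 0.369 (SE, limma adjusted p = 0.0979), which did not pass. The animals of 100 dpi were also above every control, without a call. The call against control at 30 dpi was lost with the transcript length trend removed (limma adjusted p = 0.0662) and without control 2, 30 dpi 2 or 30 dpi 3 (0.0928, 0.0588 and 0.0659), and the test among the 6 groups did not pass. Adam22, a related LGI receptor, ranged from 241 to 1977 with wide spread inside groups. The sheddases Adam10 (2134 to 3682) and Adam17 (649 to 957) and the broadly expressed Adam9 (361 to 519.6) and Adam19 (647 to 1707) passed no test. Adam9 had 465, 518 and 512 at 14 dpi against 361, 389.9 and 371 in controls, groups that did not overlap, and a log2 difference of 0.41 ± 0.118 (SE, limma adjusted p = 0.109). Of all 9887 tested rows, 1348 likewise had every animal of 14 dpi above every control.

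Among the cathepsins, Ctsk was called higher at 14 dpi than in controls. It encodes the collagen-degrading cysteine protease known from mammalian osteoclasts and also made by fibroblasts, and RefSeq places it on chromosome 1 from 251666225 to 251687886. Normalized counts of Ctsk were 34.2, 47.6 and 19.9 in controls, 77.4, 37.7 and 81.2 in shams and 38.8, 65.5 and 80.1 at 3 dpi. They were 221, 153 and 181 at 14 dpi, 36.7, 40.9 and 93.8 at 30 dpi and 74.5, 54.5 and 31.8 at 100 dpi. The 3 animals of 14 dpi were above the other 15 animals. From sham the log2 difference at 14 dpi was 1.55 ± 0.44 (SE, limma adjusted p = 0.137), which did not pass. The log2 difference from control was 2.48 ± 0.44 (SE, limma adjusted p = 0.0168) and that between 30 and 14 dpi was -1.79 ± 0.44 (SE, limma adjusted p = 0.0344). The first call was lost without control 1, control 3, 14 dpi 1 or 14 dpi 2 (limma adjusted p = 0.0547, 0.0747, 0.0981 and 0.0619), the second with the transcript length trend removed, with a replicate block and with only the 2 groups in the fit (0.0706, 0.0555 and 0.0583) and without any library of the 2 groups except 30 dpi 3 (up to 0.125). Summed FPKM of 3 osteoclast marker rows was 1.22 to 2.07 over all 18 libraries, and macrophage marker sums overlapped between controls (37.4 to 77.2) and 14 dpi (39.5 to 65.7).

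The other 10 tested cathepsins passed no test. Ctss, the cathepsin of antigen-presenting cells, had 759.8, 315 and 327 normalized counts at 14 dpi and 219, 233 and 599.9 in controls, which overlapped, and its highest value was 1141 in library 2 of 100 dpi. Ctsc ranged from 5302 to 18548, Ctsb from 7273 to 18065, and Ctsd, the lysosomal aspartic protease, from 2520.2 to 3386. Every animal of 3 dpi was below every control for Ctsc (10179, 6424 and 5302 against 13446, 18548 and 10653). Its log2 difference of -0.98 ± 0.347 (SE, limma adjusted p = 0.186) did not pass. Of all 9887 tested rows, 1001 likewise had every animal of 3 dpi below every control. Ctsl, a lysosomal cysteine endopeptidase, ranged from 1512 to 4169.5, with its highest value in library 1 of 30 dpi. Ctsh ranged from 1499 to 5775, Ctsz from 766 to 1536, Ctsf from 631 to 1237, Ctso from 101 to 294 and Ctsa, a carboxypeptidase that also protects lysosomal glycosidases, from 1218 to 2298. Every animal of 100 dpi was below every control for Ctsf (700.2, 631 and 702 against 828, 741 and 911), with a log2 difference of -0.28 ± 0.172 (SE, limma adjusted p = 0.305). The same held for Ctsa (1218, 1426 and 1476 against 1546, 1792 and 1792), with -0.32 ± 0.152 (SE, limma adjusted p = 0.187). It also held for Ctsz (899, 1132 and 1043 against 1380, 1353 and 1536). Of all 9887 tested rows, 1722 likewise had every animal of 100 dpi below every control.

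Timp3, the inhibitor that binds to the matrix and also blocks several ADAMs, differed among the 6 groups (limma adjusted p = 0.0159) in all 26 settings tried, with no pairwise call. RefSeq places it on chromosome 9 from 32629910 to 32677417. The gene had 2286, 3301 and 4772 normalized counts in controls, 2216, 1648 and 1829 in shams and 3099.5, 3616 and 9244 at 3 dpi. Values were 3484, 3346 and 2873 at 14 dpi, 1669.6, 1771 and 1525 at 30 dpi and 2058, 1938 and 1928 at 100 dpi. All animals of 30 and 100 dpi were below every animal of the control, 3 dpi and 14 dpi groups, and the shams were below every control too. The log2 difference from control was -1.0 ± 0.312 (SE, limma adjusted p = 0.0503) at 30 dpi and -0.74 ± 0.312 (SE, limma adjusted p = 0.133) at 100 dpi, and between 3 dpi and sham it was 1.32 ± 0.312 (SE, limma adjusted p = 0.0556). From sham the log2 difference was -0.19 ± 0.312 (SE, limma adjusted p = 0.769) at 30 dpi and 0.07 ± 0.312 (SE, limma adjusted p = 0.937) at 100 dpi, and these groups overlapped. Without library 3 of 3 dpi the F test gave an adjusted p of 0.00445 by limma. Timp2 ranged from 3541 to 5800.2 and passed no test.

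Epicardial and mesothelial marker sums were above those of the controls at 3 and 14 dpi. The summed FPKM of 7 such rows was 11.9 to 17.4 in controls and 11.2 to 17.4 in shams, which overlapped. It was 27.3 to 144.8 at 3 dpi, 19.0 to 60.2 at 14 dpi, 11 to 13.4 at 30 dpi and 9.0 to 12.3 at 100 dpi. Of 6 tested rows, limma called Cdh1 higher at 3 dpi than in controls, and none at the later times against control. From 14 to 30 dpi it called Krt8 and Krt18 lower. The part of these rows in the values of Timp3 and of Serpinf1 was not tested.

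Among the serpins, Serpinh1 was lower at 100 dpi than in controls. It encodes the chaperone of the endoplasmic reticulum that folds procollagen, on chromosome 3 from 181102482 to 181115477. Serpinh1 had 5635, 4563 and 5345 normalized counts in controls, 4955, 3944 and 4108 in shams and 5272, 5749 and 6469 at 3 dpi. It had 5320.1, 4753 and 5273 at 14 dpi, 3791, 5777 and 3472 at 30 dpi and 3061, 3738 and 3706 at 100 dpi. All animals of 100 dpi were below all controls and shams. The log2 difference from control was -0.57 ± 0.164 (SE, limma adjusted p = 0.0361). From sham it was -0.31 ± 0.164 (SE, limma adjusted p = 0.293), which did not pass. The call against control was lost with a replicate block (limma adjusted p = 0.0568) and without any control but control 2 or any library of 100 dpi (0.0583 to 0.138).

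Serpinb1b, a gene of the family of intracellular inhibitors of neutrophil serine proteases, was higher at 100 dpi than in controls. It had 113, 117 and 115 normalized counts in controls, 140.4, 198 and 200.2 in shams, 178, 132 and 370.0 at 3 dpi, 229, 239.7 and 209 at 14 dpi, 96.5, 125 and 119 at 30 dpi and 176, 316 and 217 at 100 dpi. Every animal of 100 dpi was above every control, as were those of 14 dpi, for which the log2 difference of 0.96 ± 0.296 (SE, limma adjusted p = 0.127) did not pass. The shams were also all above every control, without a call. At 100 dpi the log2 difference from sham was 0.37 ± 0.296 (SE, limma adjusted p = 0.509), which did not pass, and these groups overlapped. From control it was 0.99 ± 0.296 at 100 dpi (SE, limma adjusted p = 0.0408). That call held in 8 of 15 settings and was lost without any library but 100 dpi 1 (limma adjusted p = 0.0764 to 0.155), with no filter (0.0517) and with the transcript length trend removed (0.0922). The calls among the 6 groups of Serpinb1b (main limma adjusted p = 0.0443) and Serpinh1 (0.0404) held in 9 and 10 of 26 settings. Mpo, a granulocyte marker, had 22, 171 and 103 normalized counts at 100 dpi against 17.1, 25.3 and 16.3 in controls. The summed FPKM of the 2 granulocyte marker rows was 0.786 to 3.79 at 100 dpi and 0.393 to 0.781 in controls, and their part in the Serpinb1b difference was not tested.

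Serpinf1, which encodes pigment epithelium-derived factor, an anti-angiogenic serpin without inhibitory activity, differed among the 6 groups (limma adjusted p = 0.00636) in all 26 settings and was called in no pair. It lies on chromosome 17 from 27433600 to 27447338. Its normalized counts were 29.2, 60.8 and 18.1 in controls, 50, 40.3 and 56.8 in shams and 87.8, 137 and 98.6 at 3 dpi. They were 71.8, 98.2 and 127 at 14 dpi, 35.6, 36.9 and 32 at 30 dpi and 13.4, 40.2 and 14.9 at 100 dpi. All animals of 3 and 14 dpi were above every animal of the control, sham, 30 dpi and 100 dpi groups. The log2 difference from control was 1.70 ± 0.425 (SE, limma adjusted p = 0.0813) at 3 dpi and 1.57 ± 0.425 (SE, limma adjusted p = 0.0926) at 14 dpi. From sham it was 1.11 ± 0.425 (SE, limma adjusted p = 0.173) at 3 dpi and 0.97 ± 0.425 (SE, limma adjusted p = 0.35) at 14 dpi. The animals of 30 and 100 dpi were below every sham, with a log2 difference of -1.23 ± 0.425 (SE, limma adjusted p = 0.0954) at 100 dpi.

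Serpini1, the neuronal inhibitor of tissue plasminogen activator in mammals, was lower at 100 dpi than in shams. Its normalized counts were 319, 801 and 552 in shams, 357, 186 and 160.2 in controls and 162, 33 and 157 at 100 dpi. The animals of 100 dpi were below every sham, and 2 of them lay close to the lowest control. The log2 difference from sham was -2.45 ± 0.619 (SE, limma adjusted p = 0.0255). The call was lost with only the 2 groups in the fit and without sham 2, sham 3 or 100 dpi 2 (limma adjusted p = 0.075, 0.116, 0.0666 and 0.108). The animals of 14 dpi were also below every sham, but their log2 difference of -1.16 ± 0.619 (SE, limma adjusted p = 0.461) did not pass. Serpine2 ranged from 2092 to 4673 and passed no test.

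Over the whole list, 41 of 54 tested members passed no test at any time. The median log2 difference of the 54 tested members from control was 0.23 at 3 dpi (41 positive, 13 negative) and 0.25 at 14 dpi (40 positive, 14 negative), beside 0.01 and 0.00 for all tested rows. It was 0.09 at 30 dpi (30 positive, 24 negative) and 0.04 at 100 dpi (28 positive, 26 negative), beside -0.03 and -0.02 for all tested rows. With the transcript length trend removed the members' medians were -0.04 and -0.09, beside -0.04 and -0.05 for all tested rows. Between 14 and 30 dpi the members' median was -0.20 (19 positive, 35 negative), against -0.01 for all rows. Family medians at 14 dpi against control were 0.19 for MMPs, 0.44 for ADAMTS proteases, 0.26 for ADAMs and 0.15 for cathepsins, with most members of each family not called. The median of the 2 TIMPs against control was -0.55 at 30 dpi and -0.47 at 100 dpi, beside -0.39 in shams, and against sham it was -0.16 and -0.08.

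**Figure D4:**
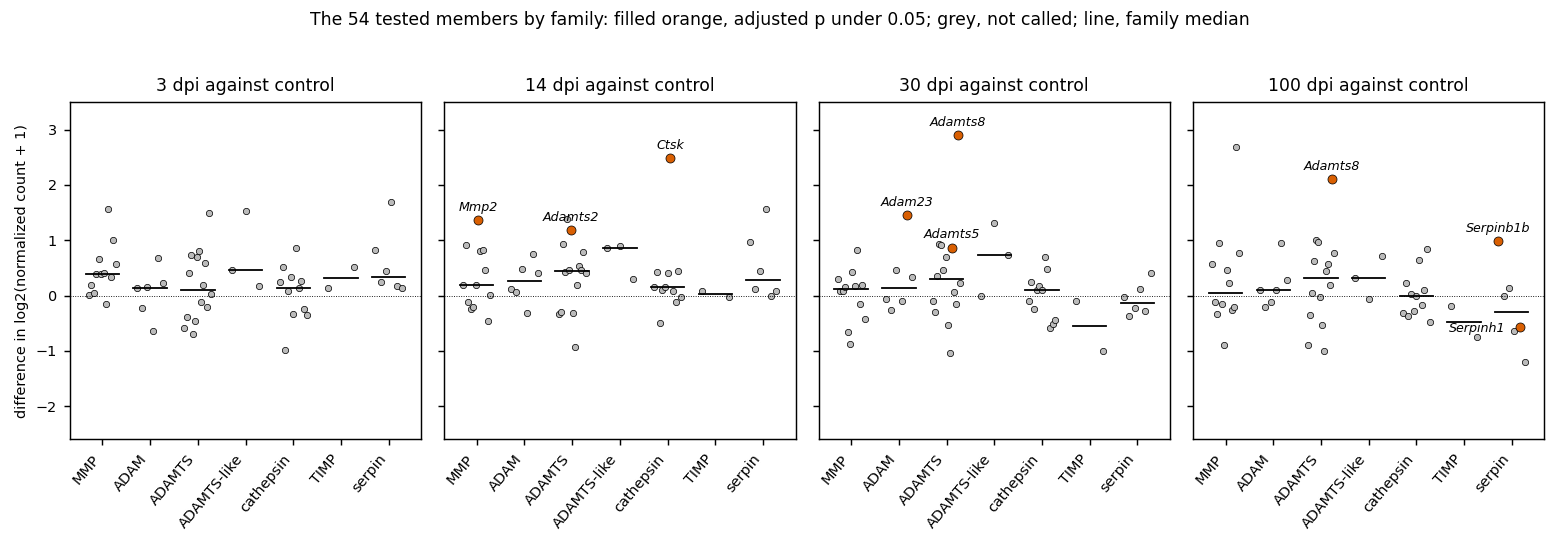
Difference from control in log2(normalized count + 1) (y axis) for the 54 tested members by family (x axis), with 1 panel per time; orange points passed an adjusted p under 0.05 in limma, grey points did not, and lines are family medians. Called points are 3 at 14 dpi, 3 at 30 dpi and 3 at 100 dpi, and Adamts8 has the largest difference at 30 dpi (2.90).

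The list of other genes of the protease system held 61 names, of which 31 had a tested row, and most of these passed no comparison. Against control, 1 of 31 was higher at 3 dpi and 1 at 14 dpi, with none lower (0.334% and 0.89% of all rows called in either direction). At 30 dpi 3 were higher and 1 lower, and at 100 dpi again 3 were higher and 1 lower, where 11.3% and 12% of all rows were called in either direction and 7.37% and 7.56% higher. The gene called at all 4 times was Pappa, a metalloproteinase that cuts insulin-like growth factor binding proteins. It had 55.4, 51.7 and 66.1 normalized counts in controls, 50, 52.3 and 48.7 in shams, 139.8, 125 and 148 at 3 dpi, 154, 121 and 111 at 14 dpi, 175, 424 and 301 at 30 dpi and 218, 269 and 202 at 100 dpi. All 12 injured animals were above all 6 control and sham animals, with a log2 difference from control of 1.25 ± 0.25 at 3 dpi (SE, limma adjusted p = 0.0456) and 2.27 ± 0.25 at 30 dpi (adjusted p = 5.25e-05). The others higher at 30 and 100 dpi were Gnptab and Igf2r. Gnptab, which makes the mannose-6-phosphate tag of lysosomal enzymes, had a log2 difference of 0.79 at 30 dpi (limma adjusted p = 0.00119), and Igf2r, a receptor for that tag, had 0.74 (limma adjusted p = 0.00358). Lower genes were Plgrkt, a plasminogen receptor, at 30 dpi (-0.40, limma adjusted p = 0.039) and Pcsk7, a proprotein convertase, at 100 dpi (-0.31, limma adjusted p = 0.038).

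Library 3 of 3 dpi carried the highest value for 17 members. The ratio to the next highest library was 3.57 for Adamts3, 1.94 for Timp3, 1.62 for Mmp19 and 1.54 for Adamts15, and it lay between 1.04 and 1.43 for 12 further members. The same library had the highest summed FPKM of the 7 epicardial and mesothelial marker rows (144.8) and of the 5 rows of the plasminogen list (214.7), and their part in the member values was not tested. Without it, limma called 12 members among the 6 groups in place of 11, with Serpinh1 no longer among them (adjusted p = 0.0724). Of all 9887 tested rows, 1546 were called without this library and 1597 with it.

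A total of 14 members stood below the filter and were not tested. Mmp3 and Adamts16 had no read in any library. Mmp20, Mmp13, Serpini2, Adamts18 and Ctse had 1 to 4 reads over all 18 libraries, and Adam12 and Serpinb5 had 20 and 23. Mmp24, Adamts20, Adamts14, Adamts13 and Adam11 had 56 to 174 reads in all. Adam11, like Adam23 a protein without protease activity, had 4.03, 13.2 and 4.52 normalized counts in controls and 20.3, 19.1 and 13.8 at 14 dpi. It had 17.4, 15.7 and 31.2 at 3 dpi and 3.82, 0.893 and 4.34 at 100 dpi. Its mean over the 18 libraries was 9.95, just below the mean of 10 that the filter required, and these values are given as levels only.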

How the data were processed

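Poly(A) RNA of 18 gecko ventricle samples was sequenced. HISAT2 2.2.0, StringTie 2.2.1 and Salmon 1.8.0 were used, per the submitters' processing notes. Per the labels, alignment to a gecko genome was followed by transcript assembly and by annotation with mouse genes. The authors deposited normalized counts, a read signal per row and library whose normalization is not given in the sources used here, and FPKM (fragments scaled by transcript length and library total), used for levels between genes. In the deposited normalized counts 100% of values were whole multiples of 1 step per library (tolerance 0.1 of a read), so whole reads were recovered, and the step factors equalled median-of-ratios size factors. Strand handling is not given in the sources used here, so overlapping or antisense genes cannot be told apart.

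Rows whose mean normalized count was 10 or more (9887; 2489 not tested) entered limma-trend (limma 3.58.1, R 4.3.3) on log2(value + 1), two-sided, with 1 mean per group over all 18 libraries, 12 residual and 3.611 prior degrees of freedom, and a Benjamini-Hochberg adjusted p under 0.05 over all rows. SE is that of the log2 difference. An exact permutation test of 3 against 3 cannot go below 0.1. Other settings were pseudocounts of 0.1 and 10, no filter, TMM, the FPKM table (mean of at least 0.5, pseudocount 0.1), a loess trend on transcript length removed (span 0.5), a replicate block, the edgeR 4.0.16 quasi-likelihood test on recovered reads, only the 2 groups compared, and each library left out. The floor of 3 reads covers counting error only. The fit was tested on simulated data. The lowest chi-square over degrees of freedom between 2 libraries of 1 group was 23.7, so none was a copy of another.

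Named genes were all members called by either test, members with known roles in matrix turnover and the 2 of highest mean FPKM per family. Members below the filter and library values that stood apart were named after their values were seen. The values of 1 tested member are not reported here. The members and lists were chosen with earlier results of these data known. RefSeq positions (60 of 68 members matched by symbol) describe annotated genes of assembly MPM_Emac_v1.0, not the assembled rows, and the labels spell the build MPM_Emav_v1.0.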

Additional observations from a re-analysis of the deposited data

Results flagged for a closer look

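In 3 members the difference from control was not the same at 30 dpi as at 14 dpi, by the limma test of 30 against 14 dpi itself. Adamts8 was higher at 30 dpi, with a log2 difference of 2.11 (limma adjusted p = 0.0123), with all 3 animals of 30 dpi above all 3 of 14 dpi, and this call held in 14 of 15 settings. Ctsk was lower, with a log2 difference of -1.79 (limma adjusted p = 0.0344) and all 3 animals of 30 dpi below those of 14 dpi; this call held in 7 of 15 settings and was lost with the replicate block (limma adjusted p = 0.0555). Mmp2 was lower, with a log2 difference of -0.943 (limma adjusted p = 0.0438), and the animals of the 2 times overlapped; this call held in 8 of 15 settings and was lost with the replicate block (limma adjusted p = 0.0686).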

How the results depend on the processing

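Apart from left-out libraries, 107 of 116 counts of members called stayed within 1.5 times the main count. These include comparisons in which both counts were 0, and equal counts need not be of the same members. The count of 3 dpi against sham (1) was 0 in the FPKM table and with only the 2 groups in the fit, 3 with the transcript length trend removed and 2 by edgeR. All rows called there were 40, 11, 200 and 101 in that order (main 96). With only the 2 groups in the fit the count was 1 for 14 dpi against sham and 1 for 100 dpi against sham (main 0 and 3). All rows called were then 42 and 521 (main 73 and 706). The members' count was 1 for 14 against 3 dpi with no filter (main 0), and 1 for 30 against 14 dpi with the transcript length trend removed (main 3). Here all rows called were 32 and 212 (main 0 and 393). The cause was not tested.

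With 1 library left out at a time, the counts called were 7 to 12 among the 6 groups, 0 to 0 for sham against control, 0 to 1 for 3 dpi, 0 to 2 for 14 dpi, 1 to 4 for 30 dpi and 1 to 3 for 100 dpi against control. Against sham they were 0 to 2 at 3 dpi, 0 to 1 at 14 dpi, 2 to 4 at 30 dpi and 1 to 3 at 100 dpi. They were 0 to 0 for 14 against 3 dpi, 1 to 5 for 30 against 14 dpi and 0 to 1 for 100 against 30 dpi. Of all 9887 rows, 1125 to 1959 were called among the 6 groups. Against control it was 0 to 6 in shams, 1 to 87 at 3 dpi and 5 to 60 at 14 dpi, then 592 to 1414 at 30 dpi and 588 to 806 at 100 dpi. Against sham it was 2 to 122 at 3, 11 to 53 at 14, 379 to 906 at 30 and 348 to 506 at 100 dpi. Rows called were 0 to 1 for 14 against 3 dpi, 142 to 482 for 30 against 14 dpi and 0 to 360 for 100 against 30 dpi. No sign of a called member turned in any setting, and 193 of 270 single calls stayed called.

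Replicate numbers did not pair the animals: of 45 pairs of libraries with the same number, 5 had a correlation of deviations over 0.1 (range -0.179 to 0.230). With the replicate block the count of 30 against 14 dpi was 1 (main 3), and 300 of all rows were called (main 393).

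Without the member of highest mean FPKM, the mean summed FPKM fell to 41.1 for ADAMs, 33.7 for ADAMTS proteases, 2.94 for ADAMTS-like genes, 83.5 for MMPs, 40.5 for TIMPs, 462.4 for cathepsins and 94.3 for serpins. Depth limits the members near the floor of 3 reads, and 3 animals per group limit every pairwise call.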

Other observations

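Mmp8 and Mmp9, known from neutrophils and macrophages in mammals, varied widely within 100 dpi. Mmp8 had 10.5, 58.9 and 112 normalized counts in the 3 animals of 100 dpi and 7.05, 12.2 and 1.81 in controls, and Mmp9 had 106, 269.7 and 532 and 102, 149.9 and 198. Between 100 dpi and control limma gave a log2 difference of 2.68 ± 1.04 (SE, limma adjusted p = 0.102) for Mmp8 and 0.77 ± 0.658 (SE, limma adjusted p = 0.481) for Mmp9. These members were chosen after their values were seen, and neither passed. Of the 2 granulocyte marker rows, Mpo had 22, 171 and 103 at 100 dpi against 17.1, 25.3 and 16.3 in controls, and Cxcr2 had 4.78, 8.93 and 2.41 against 1.01, 4.05 and 1.81. Macrophage marker rows (6) had a summed FPKM of 38.3 to 71.4 at 100 dpi and 37.4 to 77.2 in controls, ranges that overlapped. Of the single rows, Spi1 had 38.2, 84.8 and 71.3 normalized counts at 100 dpi against 25.2, 14.2 and 36.2 in controls, without overlap. Cybb had 43, 143 and 112 against 47.3, 55.7 and 58.8, and its lowest animal of 100 dpi lay below every control. Mrc1 had 139, 208 and 642 against 248, 281 and 223, ranges that overlapped. Csf1r (266, 527 and 554 against 287, 232 and 611) and C1qc (440, 811 and 478 against 448, 423 and 901) overlapped. Of 5 tested rows, 4 had a positive log2 difference from control and 0 were called. Their part in the Mmp8 and Mmp9 values was not tested.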
